A study of Mus musculus with 6 samples.

Results

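RNA-binding proteins that steer alternative splicing in muscle were followed through 10 genes, Mbnl1, Mbnl2, Mbnl3, Celf1, Celf2, Rbfox1, Rbfox2, Rbm20, Rbm24 and Rbpms2, of 41025 genes measured. They were chosen by name, and each symbol matched 1 Ensembl mouse gene ID. RNA-seq came from the tibialis anterior, a hindlimb muscle of mostly fast fibres, of C57BL/6 mice aged 8 weeks, with 3 libraries labelled Mettl21e KO and 3 labelled wild type (WT). Mettl21e encodes a protein methyltransferase enriched in muscle, and the sources used here do not say how the gene was disrupted. Nothing in the labels ties each library to a separate mouse, so the tests speak for the spread among 6 libraries, which may be partly technical.

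Alternative splicing lets 1 gene yield several mRNAs, and muscle uses it to build its own versions of channels, calcium handling proteins and sarcomere proteins. MBNL proteins, which bind RNA through zinc fingers, and CELF proteins often act against each other on the same exons, and in myotonic dystrophy MBNL proteins are trapped on repeat RNA while CELF1 is raised. RBFOX proteins bind the word TGCATG (with U in RNA) beside regulated exons, RBM20 and RBM24 control exons of sarcomere genes in heart and skeletal muscle, and RBPMS2 is an RNA-binding protein best known from smooth muscle. The deposited values are 1 level per gene, so they show how much transcript of each regulator there was and not which exons it held.

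A pair of short exons shows what lies below that level. Mbnl1 and Mbnl2 each carry a coding exon of 54 bases (18 codons) that MBNL proteins are known to regulate in their own transcripts and that affects the entry of the protein into the nucleus. It lies at chr3:60614683-60614736 in Mbnl1 and at chr14:120395712-120395765 in Mbnl2 (mm10, both on the plus strand). The GENCODE annotation has 4 protein-coding transcripts of Mbnl1 with it and 6 that span it without it, and 3 of each kind for Mbnl2. The sequences, read from those transcripts, are identical at 46 of 54 positions (85.2%), and capitals mark the 8 positions that differ.
Mbnl1 exon: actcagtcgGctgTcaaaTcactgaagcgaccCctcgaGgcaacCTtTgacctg
Mbnl2 exon: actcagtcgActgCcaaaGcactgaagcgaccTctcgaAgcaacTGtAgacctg
Even so, transcripts of the members shared no word of 50 bases in any of the 45 pairs, so an exact match of 50 bases belongs to 1 of these paralogs. A library fragment from either form of Mbnl1 adds to the same value.

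Mettl21e itself did not separate the labels, with 1.64, 1.45 and 1.88 FPKM across libraries 1 to 3 labelled KO and 2.46, 0.309 and 1.23 FPKM across libraries 1 to 3 labelled WT. Groups are therefore named by their labels throughout. Each library held 8476591 to 10856669 fragments, recovered from the FPKM values (fragments per kilobase of gene, scaled to library size). Markers of skeletal muscle fibres summed to 59924 to 63868 FPKM in libraries labelled KO and 62612 to 65109 FPKM in those labelled WT, led by Tnnt3 and Acta1. The heart markers Myh6, Myl7, Tnni3, Nppa and Nppb summed to 3.75 to 5.18 FPKM in libraries labelled KO and 3.29 to 5.0 FPKM in those labelled WT, with Nppb at 0 in all 6.

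The members spanned more than 3 orders of magnitude in level. Mbnl1 had the highest FPKM and Mbnl3 the lowest. In order of mean FPKM over the 6 libraries they were Mbnl1 (185), Rbfox1 (83.4), Rbm24 (55.8), Mbnl2 (49.8), Rbm20 (30.1), Celf2 (20.8), Celf1 (19.1), Rbfox2 (11.8), Rbpms2 (2.07) and Mbnl3 (0.164). Neighbours in this order had separate ranges over the 6 libraries except Rbm24 with Mbnl2 and Celf2 with Celf1. Rbm24 was still above Mbnl2 within each of the 6 libraries, and Celf2 above Celf1 in 5 of 6. Mbnl1 stood at percentile 96.4 of the level of all tested genes, Rbfox1 at 92.3, and Rbpms2 at 14.0.

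The order depends in part on the gene length the authors divided by. The length recovered from the FPKM matched no annotated transcript of any member, at 2342 bases for Mbnl1 against a longest transcript of 5655 bases. Per kilobase of the longest transcript, the first 5 places stayed with Mbnl1, Rbfox1, Rbm24, Mbnl2 and Rbm20, and Rbfox2 moved ahead of Celf1 (10.3) and Celf2 (7.13), which changed places. Per kilobase of all annotated exons, Rbm24 came first (51.4 fragments per kilobase, scaled to library size) and Mbnl1 (23.1) was behind both Rbm24 and Rbfox1, with Mbnl2 at 18.8, Celf1 at 9.55 and Celf2 at 2.44. Levels of different genes, and shares within a family, are therefore tied to the length chosen. Comparisons of a gene with itself across libraries are not touched by this length.

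**Figure D1:**
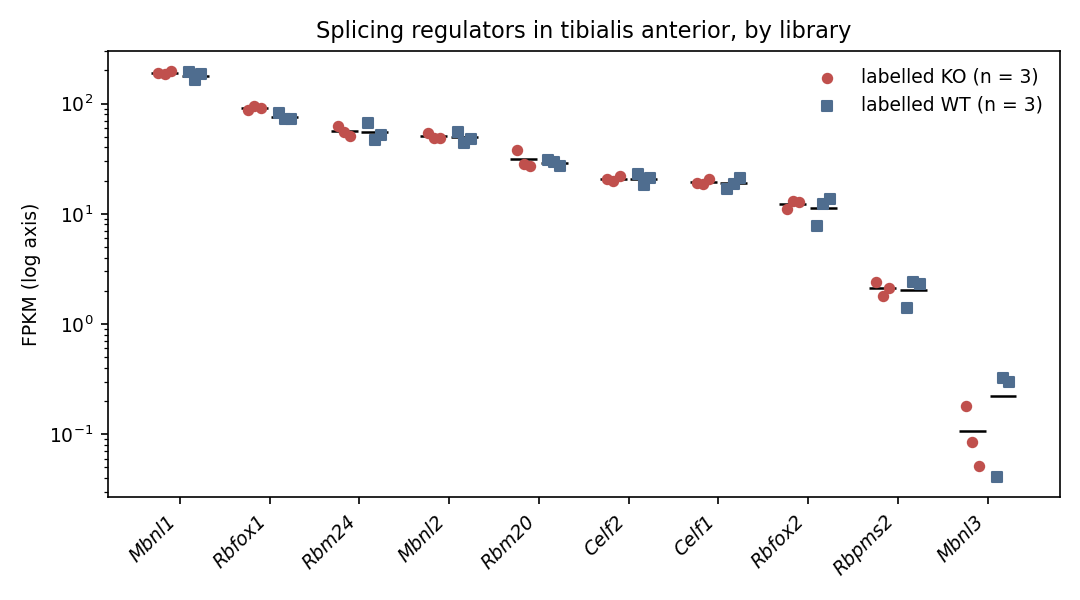
FPKM of the 10 splicing regulators in each library, on a log axis. Circles are the 3 libraries labelled KO, squares the 3 labelled WT and black lines their means. The labels occupy separate ranges for Rbfox1 (87.9 to 94.1 FPKM for KO, 72.1 to 82.6 FPKM for WT) and overlap for the other 9 genes.

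Across the transcriptome, limma called 0 of 11383 tested genes (0.0%) at a Benjamini-Hochberg adjusted p of 0.05, and 0 of the 9 members with a mean of at least 1 FPKM. Mbnl3 was below that limit and was not tested with limma. Unadjusted, limma's p was under 0.05 for 523 genes (4.59%), 1.28% of those tested being higher in libraries labelled KO, and for 1 member, Rbfox1. The labels did not overlap for 1 of 9 members (11.1%, higher for KO), beside 9.48% of all tested genes (3.84% higher and 5.64% lower for KO), so the members' share was near the background. The median log2 difference, labelled KO minus labelled WT on log2(FPKM + 1), was 0.05 for the 9 members and -0.02 for all tested genes. Differences were positive for 4933 of all tested genes and negative for 6450. Exact two-sided permutation tests of the FPKM gave 0.1 for Rbfox1, the smallest p that 3 against 3 libraries allow, and 0.4 to 1.0 for the other 9 members.

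Rbfox1 was the member whose labels stood apart. Its gene (ENSMUSG00000008658) lies at chr16:5885355-7411526 on the plus strand in mm10 and encodes an RBFOX protein of muscle, heart and neurons. It gave 87.9, 94.1 and 91.2 FPKM across libraries 1 to 3 labelled KO, against 82.6, 72.1 and 72.8 FPKM across libraries 1 to 3 labelled WT. All 3 libraries labelled KO were above all 3 labelled WT, of which library 1 came closest. The mean was 91.1 ± 3.12 FPKM for KO and 75.8 ± 5.87 FPKM for WT (SD, n = 3 each), a log2 difference of 0.26 (SE 0.08, 95% interval 0.07 to 0.45) or 1.05-fold to 1.37-fold. The difference missed limma's adjusted test (unadjusted p = 0.0123, adjusted p = 0.988), and the gene ranked 104 of 11383 by unadjusted p. Between 1697 and 2591 fragments stood behind each value, for a counting SD of 1.96% to 2.43%, against a spread of 3.42% among libraries labelled KO and 7.75% among those labelled WT. Leaving out 1 library at a time put the log2 difference between 0.23 and 0.33, with adjusted p from 0.197 to 1.0.

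No marker of slow fibres passed the adjusted test. Their fitted log2 differences were negative for all 8, 5 of them at an unadjusted p under 0.05, beside 3.31% of all tested genes that were lower for KO at that p. The labels overlapped for 4 of the 8. They stood apart for the other 4, all lower for KO, beside 5.64% of all tested genes apart in that direction. These were Myh7 (log2 difference -1.92), Myl2 (-1.29), Atp2a2 (-0.55) and Tpm3 (-0.49), all but Myl2 named after their values were seen. The summed level of all 8 overlapped, at 291 to 412 FPKM in libraries labelled KO and 329 to 635 FPKM in those labelled WT. The regulatory light chain gene Myl2 gave 20.2, 42.4 and 33.1 FPKM across libraries 1 to 3 labelled KO, against 104, 77.5 and 54.8 FPKM across libraries 1 to 3 labelled WT, and missed the adjusted test (limma adjusted p = 0.988). Myl3, the most abundant of the 8, made up most of each sum. It overlapped between labels, at 192 to 295 FPKM for KO and 204 to 383 FPKM for WT. None of the 8 was at 0 in all libraries. Among the 10 markers of skeletal muscle fibres Myh1, the gene of a fast myosin heavy chain, gave 2753, 2255 and 1977 FPKM across libraries 1 to 3 labelled KO, against 1881, 1841 and 1763 FPKM across libraries 1 to 3 labelled WT. Its labels stood apart as those of Rbfox1 did (log2 difference 0.34, limma adjusted p = 0.988), and it was named after its values were seen. Myh1 was the 1 gene of these 10 with labels apart, beside 3.84% of all tested genes apart in that direction. Differences were positive for 8 of the 10, among them Myh4 (0.05), and negative for 2, Acta1 (-0.18) and Mylpf (-0.13). The 7 fibroblast markers, led by Dcn and Col3a1, also had negative differences. Their summed levels were 222 to 306 FPKM in libraries labelled KO and 215 to 447 FPKM in those labelled WT. Labels stood apart for 1 of the 7 (14.3%), Thy1, named after its values were seen. Its log2 difference was -0.73 (limma unadjusted p = 0.00164, limma adjusted p = 0.988). Of the 7 leukocyte markers, led by Lyz2 and Cd68, 3 were tested and had negative differences. The sums of the 7 were 13.1 to 19.5 FPKM for KO and 14.6 to 42.1 FPKM for WT. Labels overlapped for all 3, among them Lyz2 (-0.80, limma unadjusted p = 0.0391, limma adjusted p = 0.988). Satellite cell markers (Cdh15 and Vcam1 highest) summed to 10.3 to 12.7 FPKM for KO and 9.75 to 13.0 FPKM for WT. The part of these cells and fibres in the Rbfox1 difference was not tested. In bulk muscle, fewer cells of a type and less RNA per cell cannot be told apart.

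RefSeq lists Rbfox1 starts at 2 places more than 1 megabase apart, and the deposited value does not separate them. The promoters, windows of 300 bases around each start, are shown because Rbfox1 had the largest difference among the 9 tested members. They lie at chr16:5884543-5884842 and chr16:7069585-7069884 on the plus strand (GRCm38.p6), and capitals mark CAGCTG, a form of the E-box that myogenic factors favour.
Rbfox1 upstream promoter: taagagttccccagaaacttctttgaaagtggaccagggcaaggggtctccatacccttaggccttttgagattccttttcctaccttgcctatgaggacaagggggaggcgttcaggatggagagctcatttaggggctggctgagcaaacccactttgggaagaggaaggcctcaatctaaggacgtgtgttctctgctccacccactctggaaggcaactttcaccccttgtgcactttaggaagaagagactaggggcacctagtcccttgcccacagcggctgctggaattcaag
Rbfox1 inner promoter: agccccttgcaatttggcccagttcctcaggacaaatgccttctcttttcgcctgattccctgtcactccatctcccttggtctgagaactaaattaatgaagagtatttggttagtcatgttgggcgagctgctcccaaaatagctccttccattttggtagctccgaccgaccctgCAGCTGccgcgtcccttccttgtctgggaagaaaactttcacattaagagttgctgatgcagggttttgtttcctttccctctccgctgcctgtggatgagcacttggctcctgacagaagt
The word CAGCTG, which reads the same on both strands, occurs once in the inner window and not in the upstream one. The shorter pattern CANNTG contains it, and occurs 3 times in the inner window and not in the upstream one. Over 32851 RefSeq promoters of the same length, 16.3% hold CAGCTG and 72.3% hold CANNTG. Of the 14 promoter entries found for 8 of the 10 members, 2 hold CAGCTG, 1 each of Rbfox1 and Rbpms2. Rbfox2 and Rbm20 had no entry.

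Rbfox2, the broadly expressed member of the family (ENSMUSG00000033565, chr15:77078990-77307004, minus strand), was set apart by 1 library labelled WT. It gave 11.0, 13.1 and 12.8 FPKM across libraries 1 to 3 labelled KO, against 7.81, 12.3 and 13.7 FPKM across libraries 1 to 3 labelled WT. The groups overlap, and library 1 labelled WT is below the other 5. The log2 difference was 0.14 (SE 0.19, 95% interval -0.28 to 0.57, limma adjusted p = 0.988), and without library 1 labelled WT it was -0.08. With a range of 0.74 log2 units over the 6 libraries Rbfox2 varied most among the tested members, and its SD stood at percentile 84.2 of all tested genes. Rbfox1 held 88.9%, 87.8% and 87.7% of the summed FPKM of Rbfox1 and Rbfox2 across libraries 1 to 3 labelled KO, and 91.4%, 85.4% and 84.1% across libraries 1 to 3 labelled WT. The shares overlap, with library 1 labelled WT above all others. Per all annotated exons they averaged 84.2% for KO and 82.8% for WT. The sum itself was 98.9 to 107 FPKM in libraries labelled KO and 84.5 to 90.4 FPKM in those labelled WT.

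Genes with a profile close to that of Rbfox2 were led by Map4k3, which encodes a protein kinase. Closeness was the root mean square difference between profiles of log2(FPKM + 1), each centred on its own mean over the 6 libraries, among 11382 other tested genes. It was 0.0404 for Map4k3, 0.0431 for Adgrl2, an adhesion receptor gene, 0.0496 for Ccdc88c, 0.0524 for Rnf150 and 0.0529 for Itga1, an integrin subunit gene. Library 1 labelled WT lay -0.51 to -0.41 log2 units from the mean of these 5 genes, which their choice by likeness to Rbfox2 fixes. As a separate measure, library 1 labelled WT had the lowest summed level of endothelial markers, led by Pecam1 and Cdh5 (120.0 to 138 FPKM in libraries labelled KO, against 103, 160.0 and 155 FPKM across libraries 1 to 3 labelled WT). It also had the lowest sum of smooth muscle markers, led by Acta2 and Tagln (171 to 199.7 FPKM in libraries labelled KO, against 140.1, 219 and 251 FPKM across libraries 1 to 3 labelled WT). All 6 endothelial and all 8 smooth muscle markers were detected. Its sums of fibroblast markers (215 FPKM) and satellite cell markers (9.75 FPKM) were also the lowest of the 6 libraries. The next lowest were close, at 222 FPKM in library 1 labelled KO and 10.3 FPKM in library 2 labelled KO. Its sum of leukocyte markers (14.6 FPKM) was above that of library 2 labelled KO (13.1 FPKM), and its sum of skeletal muscle fibre markers (65109 FPKM) was the highest. Library 1 labelled WT was the lowest library for 22.4% of all tested genes, the largest such share. The part of other cells in the Rbfox2 profile was not tested.

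**Figure D2:**
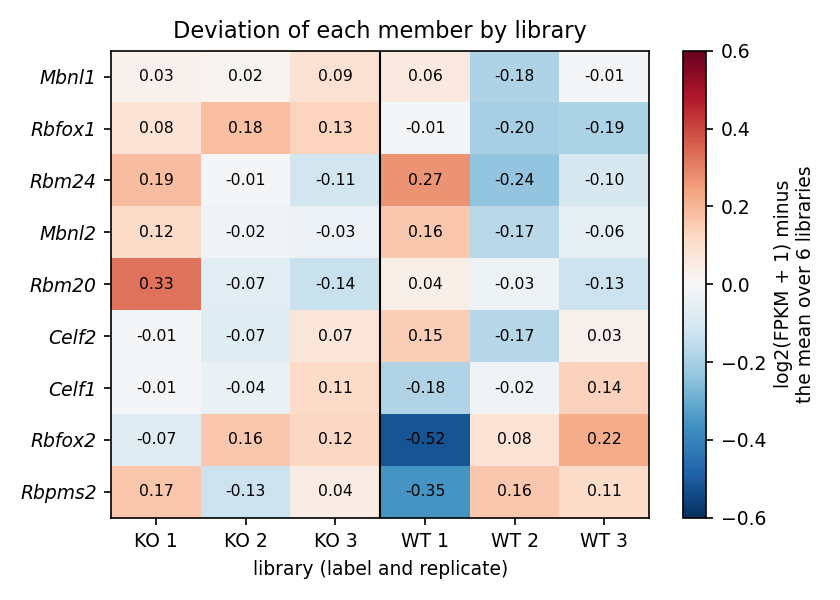
Deviation of log2(FPKM + 1) from the mean over the 6 libraries for the 9 tested members (rows, highest mean level at the top), with libraries labelled KO on the left of the line and those labelled WT on the right. Library 1 labelled WT is lowest for Rbfox2, Rbpms2 and Celf1 and highest for Rbm24, Mbnl2 and Celf2. Over all tested genes, that library is lowest for 22.4% and highest for 17.3%. Rbfox1 is the 1 row with both labels apart.

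Mbnl1 had the highest FPKM of the MBNL genes, and the values of all 3 overlapped between labels. Mbnl1, the main MBNL factor of adult muscle (ENSMUSG00000027763, chr3:60472830-60629750, plus strand), gave 188, 187 and 197 FPKM across libraries 1 to 3 labelled KO, against 192, 162 and 184 FPKM across libraries 1 to 3 labelled WT. Library 2 labelled WT was the lowest of the 6. Between labels the log2 difference was 0.09 (SE 0.08, 95% interval -0.10 to 0.28, limma adjusted p = 0.988), which bounds the fold between 0.93 and 1.21, and without library 2 labelled WT it was 0.02. Its spread over the 6 libraries was at percentile 18.2 of all tested genes.

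Mbnl2, the paralog that can stand in for Mbnl1 in part (ENSMUSG00000022139, chr14:120275669-120431697, plus strand), gave 53.9, 49.0 and 48.6 FPKM across libraries 1 to 3 labelled KO, against 55.7, 44.2 and 47.7 FPKM across libraries 1 to 3 labelled WT. The libraries labelled WT held both the highest and the lowest value. This left a log2 difference of 0.04 (SE 0.10, 95% interval -0.19 to 0.28, limma adjusted p = 0.988), and it was -0.03 without library 2 labelled WT and -0.00444 without library 1 labelled KO. The antisense gene Gm26679 shares 86 exonic bases with Mbnl2 on the other strand, and was at 0.0 to 0.282 FPKM. Mbnl1 made up 79.0% ± 1.27 of the summed MBNL FPKM in libraries labelled KO and 78.4% ± 0.877 in those labelled WT (SD, n = 3 each). With fragments divided by the longest transcript its share was 65.7% for KO and 65.0% for WT, and with all annotated exons 55.5% for KO and 54.7% for WT.

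Mbnl3, the family member linked to immature and regenerating muscle (ENSMUSG00000036109, chrX:51117269-51206532, minus strand), was near the limit of detection. It had 4, 2 and 1 fragments across libraries 1 to 3 labelled KO and 1, 8 and 6 across libraries 1 to 3 labelled WT. These are 0.182, 0.0845 and 0.052 FPKM in libraries labelled KO and 0.041, 0.325 and 0.299 FPKM in those labelled WT, and the ranges overlap. Summed over 3 libraries there were 7 fragments for KO (95% exact Poisson interval 2.81 to 14.4) and 15 for WT (8.40 to 24.7). These intervals cover counting error only and overlap, which is not a test of the difference. The exact permutation test of Mbnl3 FPKM gave p = 0.4. With 3 against 3 libraries this test cannot go below 0.1, so it could not pass 0.05 whatever the values. No word of 50 bases in its transcripts occurs in another gene.

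Celf1 and Celf2 had ranges of FPKM that overlapped each other, at the deposited gene lengths. Celf1, the factor that is raised in myotonic dystrophy muscle (ENSMUSG00000005506, chr2:90940382-91019497, plus strand), gave 18.9, 18.5 and 20.7 FPKM across libraries 1 to 3 labelled KO, against 16.7, 18.8 and 21.0 FPKM across libraries 1 to 3 labelled WT. Libraries labelled WT held the lowest and the highest value. The log2 difference was 0.04 (SE 0.11, 95% interval -0.20 to 0.29, limma adjusted p = 0.988). It was -0.03 without library 1 labelled WT and -0.00069 without library 3 labelled KO.

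Celf2, a close paralog with wide expression (ENSMUSG00000002107, chr2:6539694-7509563, minus strand), gave 20.6, 19.7 and 21.9 FPKM across libraries 1 to 3 labelled KO, against 23.1, 18.3 and 21.1 FPKM across libraries 1 to 3 labelled WT. The 3 libraries labelled KO lay inside the range of those labelled WT. The log2 difference was -0.00153 (SE 0.11, 95% interval -0.24 to 0.24, limma adjusted p = 1.0), which bounds the fold between 0.85 and 1.18. Its sign changed without library 1 labelled KO (0.000655), library 2 labelled KO (0.03), library 1 labelled WT (0.07) or library 3 labelled WT (0.01), and it was 0.05 with library medians subtracted. The lincRNA Gm26565 shares 1961 exonic bases with Celf2 on the other strand and was listed at 0 in all 6 libraries. Celf1 held 47.9%, 48.5% and 48.6% of the summed FPKM of Celf1 and Celf2 across libraries 1 to 3 labelled KO and 42.0%, 50.6% and 49.9% across libraries 1 to 3 labelled WT. Per longest transcript its share was 59.4% for KO and 58.6% for WT, and per all annotated exons 79.9% for KO and 79.3% for WT.

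Rbm24 and Rbm20, the RBM proteins of striated muscle, were highest in library 1 of each label, as was Mbnl2. Rbm24, which favours inclusion of muscle exons (ENSMUSG00000038132, chr13:46418434-46431095, plus strand), gave 63.1, 54.9 and 51.2 FPKM across libraries 1 to 3 labelled KO, against 66.9, 46.8 and 51.7 FPKM across libraries 1 to 3 labelled WT. The groups overlap, with the libraries labelled WT outermost on both sides. The log2 difference was 0.04 (SE 0.14, 95% interval -0.28 to 0.36, limma adjusted p = 0.988). It was -0.07 without library 2 labelled WT and -0.04 without library 1 labelled KO, and 0.19 without library 1 labelled WT.

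Rbm20, the repressor of titin exons whose mutations cause cardiomyopathy in humans (ENSMUSG00000043639, chr19:53677306-53867080, plus strand), gave 37.8, 28.5 and 27.2 FPKM across libraries 1 to 3 labelled KO, against 30.7, 29.3 and 27.2 FPKM across libraries 1 to 3 labelled WT. Library 1 labelled KO stood above the other 5, which lay between 27.2 and 30.7 FPKM. Its log2 difference was 0.08 (SE 0.13, 95% interval -0.21 to 0.38, limma adjusted p = 0.988), and without library 1 labelled KO it was -0.06. The spread of 18.6% among libraries labelled KO exceeded the counting SD of 2.77% to 3.49%.

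Rbpms2, low in this muscle (ENSMUSG00000032387, chr9:65629648-65660528, plus strand), gave 2.42, 1.79 and 2.14 FPKM across libraries 1 to 3 labelled KO, against 1.39, 2.41 and 2.29 FPKM across libraries 1 to 3 labelled WT. The groups overlap, and library 1 labelled WT, which also had the lowest sum of smooth muscle markers, was lowest. The part of those cells in its level was not tested. With 28 to 49 fragments a library the counting SD was 14.3% to 18.9%, against a spread of 14.9% among libraries labelled KO and 27.5% among those labelled WT. Its log2 difference was 0.05 (SE 0.18, 95% interval -0.35 to 0.46, limma adjusted p = 0.988), and it was -0.11 without library 1 labelled WT and -0.02 without library 1 labelled KO. Of the 50-base words of Rbpms2, 12.4% also occur in Gm3470, which was listed at 0 in all 6 libraries.

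**Figure D3:**
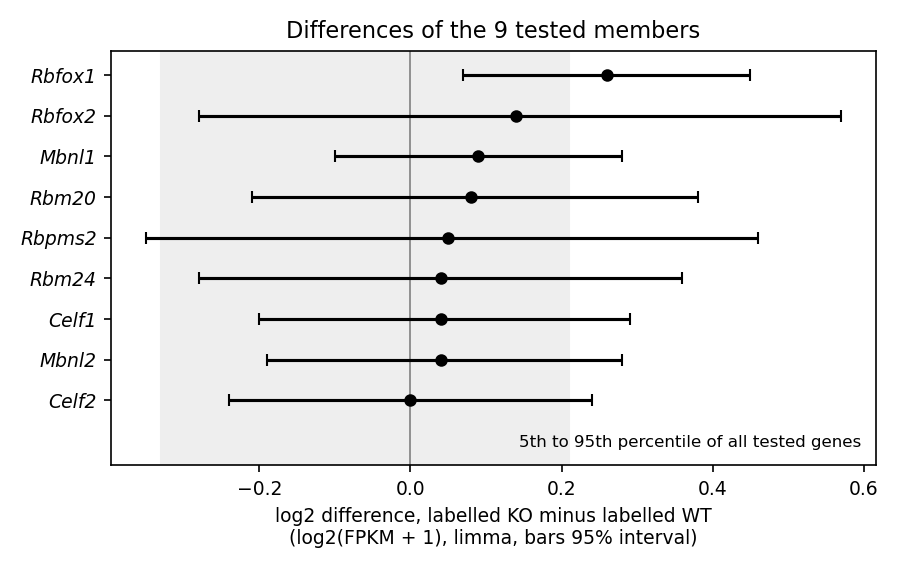
Log2 difference of the 9 tested members, labelled KO minus labelled WT on log2(FPKM + 1), with limma's 95% interval as bars. The grey band holds the 5th to 95th percentile of all tested genes (-0.33 to 0.21). Rbfox1 (0.26) lies outside the band and the intervals of the other 8 include 0.

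The wider splicing machinery was examined through 4 lists. Relatives of the members in the CELF, RBFOX, RBPMS and RBM families had 10 of 15 genes above the limit of 1 FPKM, and limma called 0 of them higher and 0 lower. Their median log2 difference was 0.04, with 7 positive and 3 negative. The neuronal paralogs Celf3, Celf4, Celf5 and Rbfox3 were below the limit, and Celf6 was listed at 0 throughout. Rbm39, a spliceosome-associated factor, was highest at 103 ± 3.11 FPKM in libraries labelled KO and 99.0 ± 9.48 FPKM in those labelled WT. Rbm38, which acts in muscle differentiation, followed at 84.6 ± 19.3 FPKM for KO and 95.5 ± 2.80 FPKM for WT (log2 difference -0.20), and shares 384 exonic bases with genes on the other strand. Rbm4 had the smallest unadjusted p of this list (log2 difference 0.46, limma unadjusted p = 0.064, limma adjusted p = 0.988), but 57.5% of its 50-base words occur in other genes, so its value is uncertain. The labels stood apart for 1 of the 10 tested genes of the list, Rbpms (0.10), named after its values were seen. Among all tested genes the labels stood apart for 9.48%, with 3.84% higher for KO, so this list was near the background.

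Other regulators of alternative splicing, among them hnRNP, SR, PTB and STAR proteins and the kinases that act on SR proteins, had 42 of 46 genes tested. Limma called 0 higher and 0 lower, and the median log2 difference was 0.01, with 27 positive and 15 negative. Hnrnpa2b1, an abundant hnRNP, was at 338 ± 17.5 FPKM in libraries labelled KO and 319 ± 22.8 FPKM in those labelled WT. Hnrnpk was at 135 ± 7.99 FPKM for KO and 134 ± 5.10 FPKM for WT, with 14.5% of its words shared with other genes. The smallest unadjusted p belonged to Hnrnpm (log2 difference 0.19, limma unadjusted p = 0.0743) and Hnrnpd (0.18, limma unadjusted p = 0.0949), with limma adjusted p = 0.988 for both. Hnrnpm shares 13.5% of its words and 1169 exonic bases with other genes, so its value is uncertain, and Hnrnpd shares 385 exonic bases with a gene on the other strand. The labels stood apart for 3 of 42 genes (7.14%), beside 9.48% of all tested genes. These 3 were Hnrnpd, Hnrnpf (-0.13) and Srpk1 (0.16), the last pair named after their values were seen.

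The core spliceosome list had 18 of 19 genes tested, with 0 called higher and 0 lower by limma and a median log2 difference of -0.03. Differences were positive for 7 of the 18 and negative for 11. Snrpb, part of the Sm ring of spliceosomal particles, was at 96.0 ± 9.33 FPKM in libraries labelled KO and 96.6 ± 5.14 FPKM in those labelled WT. Snrnp70, which binds U1 RNA, was at 93.3 ± 11.4 FPKM for KO and 91.6 ± 4.27 FPKM for WT. The Sm genes Snrpd3 and Snrpe had the smallest unadjusted p, in opposite directions. Snrpd3 gave 51.4, 56.2 and 65.7 FPKM across libraries 1 to 3 labelled KO, against 50.1, 47.2 and 50.5 FPKM across libraries 1 to 3 labelled WT (log2 difference 0.22, limma unadjusted p = 0.0611). It was the 1 gene of the 18 tested with labels apart (5.56%), beside 9.48% of all tested genes. Snrpd3 shares 232 exonic bases with Gucd1 on the other strand. Snrpe was at 41.1 ± 4.06 FPKM for KO and 48.4 ± 5.31 FPKM for WT (log2 difference -0.23, limma unadjusted p = 0.0636), and 9.0% of its words occur in other genes. Limma's adjusted p was 0.988 for both.

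Muscle genes whose exons are reported to be controlled by these regulators were measured as whole genes. Of 30, 29 were tested, limma called 0 higher and 0 lower, and the median log2 difference was 0.04, with 18 positive and 11 negative. Tnnt3, the fast-fibre troponin T gene, averaged 18661 ± 1425 FPKM in libraries labelled KO and 17739 ± 1202 FPKM in those labelled WT. Atp2a1, the calcium pump of fast fibres, was at 8820 ± 568 FPKM for KO and 8237 ± 598 FPKM for WT, and shares 763 exonic bases with Rabep2 on the other strand. Mef2c, a muscle transcription factor, gave 308, 315 and 315 FPKM across libraries 1 to 3 labelled KO, against 282, 291 and 267 FPKM across libraries 1 to 3 labelled WT. Its labels stood apart, with a log2 difference of 0.16 (SE 0.07, limma unadjusted p = 0.0498, limma adjusted p = 0.988). Ldb3, a Z-disc protein, gave 506, 408 and 361 FPKM across libraries 1 to 3 labelled KO, against 442, 589 and 569 FPKM across libraries 1 to 3 labelled WT (log2 difference -0.33, limma unadjusted p = 0.0552, limma adjusted p = 0.988). Its groups overlap through library 1 of both labels. Besides Mef2c, the labels stood apart for Camk2d (-0.15), named after its values were seen. That makes 2 of 29 genes (6.90%), beside 9.48% of all tested genes.

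**Figure D4:**
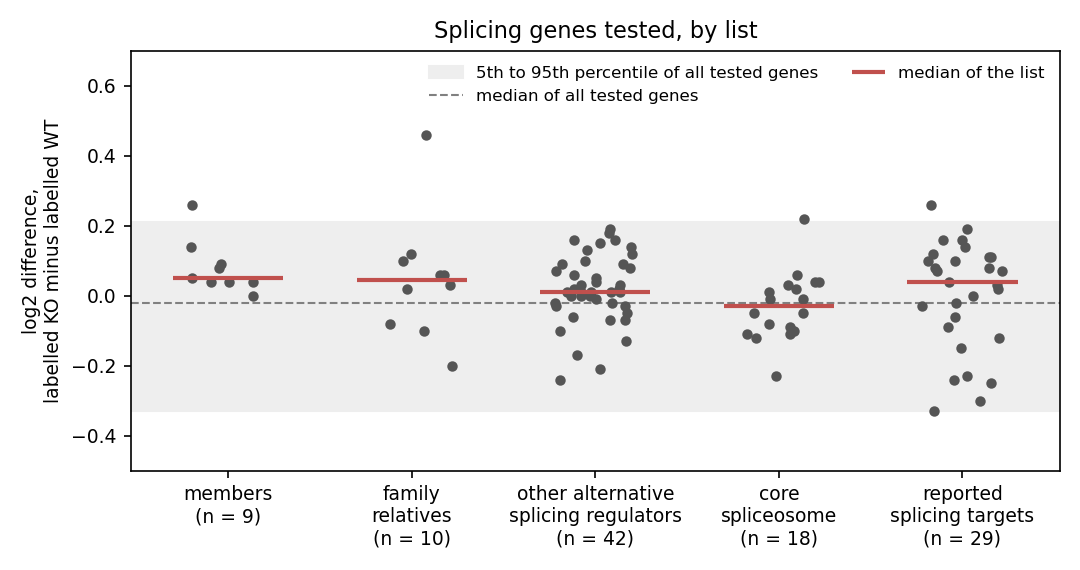
Log2 difference of each tested gene in the members and 4 lists of splicing genes, labelled KO minus labelled WT on log2(FPKM + 1). Each dot is a gene, red lines are list medians (0.05, 0.04, 0.01, -0.03 and 0.04 from left to right), the dashed line is the median of all tested genes (-0.02) and the grey band their 5th to 95th percentile. Most dots lie inside the band, and no gene passed the adjusted test.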

How the data were processed

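The authors deposited 1 table of FPKM per gene for each of 6 libraries. Cufflinks 2.2.1, TopHat2 2.1.1 and the mm10 build are named per the submitters' processing notes, without their roles. No annotation or strand setting is given in the sources used here, and reads from genes that overlap on opposite strands cannot be told apart. Sample titles gave each library its group and number. Whole fragments and 1 length per gene were recovered from the deposited FPKM for all 23559 genes above 0 (100.0%, tolerance 0.002 of a fragment, lengths of 20 to 110000 bases). These fragments made up 99.7% of each library total. For tests, log2(FPKM + 1) of the 11383 genes whose mean reached 1 FPKM was fitted in limma 3.58.1 (R 4.3.3), allowing the variance to follow the mean, with Benjamini-Hochberg adjustment and a threshold of 0.05. The log2(FPKM + 1) scale understates changes of low genes. The fit was tested on simulated data. Single values were compared by exact permutation. Every pair of libraries differed beyond sampling noise in a chi-square test of fragments.

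The members and lists were chosen with earlier results of these data known, and no list was tested as a set. Named genes are the members, the 2 most abundant genes and the 2 with the smallest p of each splicing list, marker genes by level, and the 5 closest profiles. One marker list is not reported here. Positions, transcripts and exons are from GENCODE vM21 (mm10) and promoters from RefSeq (GRCm38.p6). Alternatives were other scalings, pseudocounts of 0.1 and 0.01, no filter or a mean of at least 5 FPKM, a replicate block, no trend, library weights, limma voom on recovered fragments, and leaving out each library. Other gene lengths were tried after seeing the data. Python 3.11.15, pandas 2.3.3, numpy 2.4.6, scipy 1.17.1 and matplotlib 3.10.9 were used.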

Additional observations from a re-analysis of the deposited data

How the results depend on the processing

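No member and no gene of the 4 splicing lists was called under any of the 16 alternatives. Over all genes the count called was 0 to 3 when 1 library was left out, being 1 without library 3 labelled KO, 1 without library 1 labelled WT and 3 without library 3 labelled WT, and 0 under each of the other alternatives. Genes with an unadjusted p under 0.05 numbered 523 in the reported comparison, 468 in limma voom on recovered fragments, 1413 with library weights, 987 without a filter, 339 at a mean of at least 5 FPKM, and 342 to 1356 with 1 library left out, the most without library 1 labelled WT. Rbfox1 and Mbnl1 kept a positive log2 difference under all 16 alternatives, Rbfox1 between 0.23 and 0.33 with adjusted p from 0.197 to 1.0. With library weights Celf1 (-0.03), Celf2 (0.00753) and Rbpms2 (-0.09) changed sign, and Celf2 also did with library medians subtracted (0.05) and quantile normalization (0.03). The cause was not tested. Leaving out 1 library gave ranges of -0.03 to 0.13 for Mbnl2, -0.03 to 0.12 for Celf1, -0.09 to 0.07 for Celf2, -0.08 to 0.29 for Rbfox2, -0.06 to 0.17 for Rbm20, -0.07 to 0.19 for Rbm24 and -0.11 to 0.15 for Rbpms2. Same-numbered libraries did not deviate together over the tested genes (correlations of 0.02, -0.04 and 0.02), so no pairing by number was seen. With 3 libraries per label, this check cannot exclude a weak pairing. With a replicate block 0 genes were called and Rbfox1 stayed at 0.26 (limma unadjusted p = 0.0311, limma adjusted p = 0.993). Rbpms2 has no value at a mean of at least 5 FPKM, and Mbnl3 entered only without a filter (log2 difference -0.14, limma adjusted p = 0.913). Its 1 to 8 fragments a library are what depth limits most.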
